A study of Mus musculus with 24 samples.

Results

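The patatin-like phospholipase genes Pnpla2, Pnpla3, Pnpla5, Pnpla6, Pnpla7 and Pnpla8, the neutral lipase genes Lipe and Mgll, and the regulators Abhd5 and G0s2 were followed in the livers of mice that lack lipin 1 in adipocytes. The members were chosen by gene symbol, and all 10 were found among the 41388 genes counted. All 10 had more than 1 CPM (read counts scaled to the library total) in 4 or more of the 20 libraries of single mice and were tested, but Pnpla5 passed that limit through LFD mice alone.

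As background, triglyceride stored in lipid droplets is broken down in steps. Adipose triglyceride lipase, the product of Pnpla2, takes off the first fatty acid, with the protein of Abhd5 as its coactivator and that of G0s2 as its inhibitor. Hormone-sensitive lipase (Lipe) hydrolyses diglyceride, and monoglyceride lipase (Mgll) releases the last fatty acid from glycerol. In liver, adipose triglyceride lipase also frees fatty acids for oxidation. The protein of Pnpla3 sits on lipid droplets, and its gene is a known target of the lipogenic transcription factors that insulin and carbohydrate activate.

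The labels give 4 groups of livers: WT LFD, Adn-Lpin1-/- LFD, WT HFD and Adn-Lpin1-/- HFD, each with libraries of 5 single mice and 1 library labelled as mice 1 to 5 pooled. All mice were male, of a C57BL/6J background, with both Lpin1 alleles floxed; WT mice were littermates without Cre, and Adn-Lpin1-/- mice carried a Cre driven by the adiponectin promoter, which acts in adipocytes, so liver Lpin1 does not check the labels. Mice went onto the diets at 8 weeks of age, the LFD with 10% and the HFD with 60% of kcal from fat, and were fasted for 4 hours before sacrifice. The labels give 16 weeks of feeding, whereas the study's methods describe a shorter period.

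Total counts per mouse ranged from 36260187 to 81072794 reads, and totals of WT LFD mice (36260187 to 45999456) lay below those of every other group. The liver label was checked with 7 hepatocyte markers, whose summed level on the LFD was 115097 to 120945 CPM in WT and 79702 to 109706 in Adn-Lpin1-/- mice, and on the HFD 103193 to 135153 and 84912 to 112885. Of 8 adipocyte markers, Lep and Plin1 had at most 5 reads in any mouse, Retn at most 6 and Aqp7 at most 88. Others of the list had more reads: Fabp4 had 86 to 266 reads in WT LFD and 431 to 969 in Adn-Lpin1-/- HFD mice, Cfd 7 to 110 and 314 to 12304, and Car3 at least 56712 in every mouse. Adipoq, which encodes adiponectin, had 168 reads in mouse 1 of WT LFD, 41 in mouse 2 of WT HFD and 0 to 8 in the other 18 mice.

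The promoters of Pnpla3 and Pnpla5 are shown because the diet results below turn on these genes. They lie next to each other on chromosome 15 of GRCm38 and are read away from each other: Pnpla5 (ENSMUSG00000018868) on the minus strand from 84112621 to 84123175, and Pnpla3 (ENSMUSG00000041653) on the plus strand from 84167816 to 84189512, with start sites 44641 bases apart and 0 protein-coding genes between them. The sequences are the 250 bases before each start site from RefSeq on GRCm38.p6, at chr15:84167566-84167815 (plus strand) for Pnpla3 and at chr15:84123176-84123425 (minus strand) for Pnpla5, 5′ to 3′. Capitals mark the CCAAT box (also as its reverse, ATTGG), the GC box (GGGCGG) and the E-box (CACGTG).
Pnpla3: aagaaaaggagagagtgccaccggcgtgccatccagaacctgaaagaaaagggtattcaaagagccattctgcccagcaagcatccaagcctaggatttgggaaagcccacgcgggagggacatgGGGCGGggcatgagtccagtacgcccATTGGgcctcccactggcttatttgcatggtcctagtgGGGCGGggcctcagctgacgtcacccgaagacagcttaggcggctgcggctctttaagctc
Pnpla5: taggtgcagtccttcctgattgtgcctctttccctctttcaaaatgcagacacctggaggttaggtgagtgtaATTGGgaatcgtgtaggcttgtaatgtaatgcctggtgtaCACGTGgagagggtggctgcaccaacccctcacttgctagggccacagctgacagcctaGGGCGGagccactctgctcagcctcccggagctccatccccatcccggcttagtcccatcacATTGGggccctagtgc
Pnpla3 held GC boxes at -125 to -120 and -61 to -56 and a reverse CCAAT box at -99 to -95, counted from the start site. In Pnpla5, reverse CCAAT boxes stood at -177 to -173 and -16 to -12, an E-box at -137 to -132 and a GC box at -78 to -73. These motifs are common: in the same 250 bases of 32851 mouse promoters, on either strand, 33.85% held a CCAAT box, 32.74% a GC box and 6.021% an E-box. A sterol regulatory element of the letters TCACNCCAC was in neither window and in 1.053% of all promoters, and TATAAA was also in neither. Across the 14 windows of the 10 members, an E-box also stood before Pnpla7, Mgll and 1 start of Lipe. A match, or its absence, describes only these letters in this window.

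**Figure D1:**
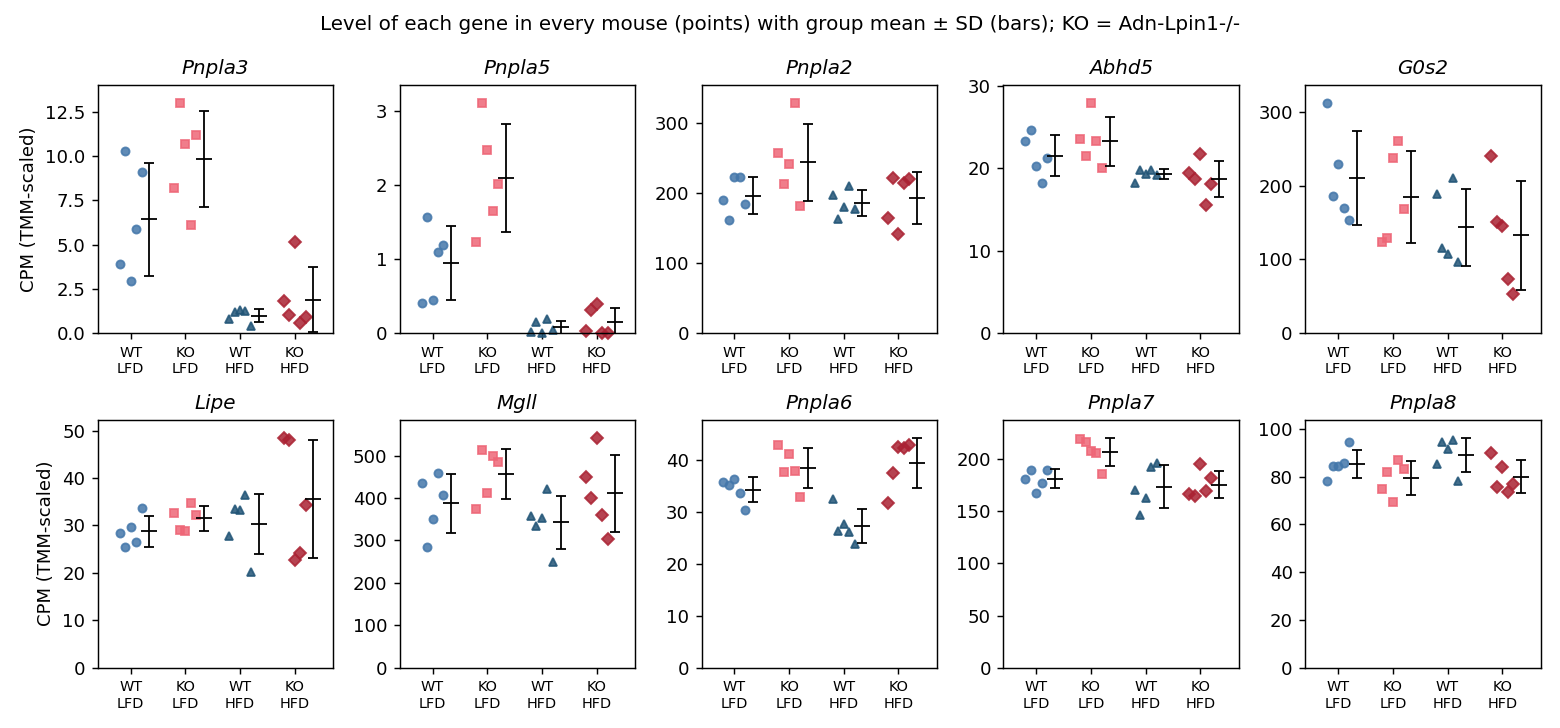
Level of each of the 10 genes (CPM on the scaled library totals, linear axes from 0) in 5 mice of each of 4 groups, with each mouse as a point and the group mean ± SD as a black bar that is cut off at 0. Pnpla3 and Pnpla5 were lower in all HFD mice than in the LFD mice of the same genotype, while the groups of the other genes overlapped in most comparisons.

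The diet comparisons asked which genes differed between HFD and LFD livers within a genotype. Pnpla3, the droplet-bound patatin protein also called adiponutrin, fell on the HFD in both genotypes. In WT LFD mice 1 to 5 it was at 3.89, 10.3, 2.92, 5.86 and 9.12 CPM, and in WT HFD mice at 0.821, 1.20, 1.28, 1.23 and 0.377 CPM. In Adn-Lpin1-/- mice it was at 8.18, 13, 10.7, 6.08 and 11.2 CPM on the LFD and at 1.82, 1.03, 5.12, 0.587 and 0.906 CPM on the HFD. In each genotype every HFD mouse was below every LFD mouse, although mouse 3 of Adn-Lpin1-/- HFD, at 5.12 CPM, stood well above its group and near the lowest Adn-Lpin1-/- LFD mouse. The level was 6.56 times lower on the HFD in WT mice (log2 fold change -2.71, standard error 0.51, Benjamini-Hochberg adjusted p = 0.0128 by the quasi-likelihood test of edgeR). In Adn-Lpin1-/- mice it was 5.12 times lower (log2 fold change -2.36, standard error 0.48, adjusted p = 0.0122 by edgeR).

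Pnpla5, a related triglyceride lipase tied to autophagy, also fell in both genotypes, on few reads. It was at 0.412, 1.57, 0.447, 1.09 and 1.18 CPM in WT LFD mice 1 to 5 and at 0.0182, 0.146, 0, 0.192 and 0.0342 CPM in WT HFD mice, from 16, 70, 15, 42 and 48 and 1, 8, 0, 10 and 2 reads. In Adn-Lpin1-/- LFD mice it was at 1.23, 3.10, 2.47, 1.65 and 2.02 CPM (65, 161, 155, 86 and 123 reads), and in Adn-Lpin1-/- HFD mice at 0.0320, 0.313, 0.399, 0 and 0 CPM (2, 21, 34, 0 and 0 reads). All HFD mice were again below all LFD mice of their genotype. The 3 mice with 0 reads allow levels of up to 0.0504, 0.0509 and 0.0398 CPM (3 reads, counting error only). These limits are on plain library totals, whereas the other values are on scaled library totals. The log2 fold change was -3.60 in WT mice (standard error 0.81, adjusted p = 0.0345 by edgeR) and -3.74 in Adn-Lpin1-/- mice (standard error 0.70, adjusted p = 0.00665 by edgeR). These sizes are loosely set: they were -4.22 without mouse 4 of WT HFD and -4.57 without mouse 3 of Adn-Lpin1-/- HFD, and -4.31 and -5.37 by voom. Since Pnpla5 entered the test through its LFD level alone, its being lower on the HFD is partly fixed by the limit on low counts.

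These were the members called by diet: 2 of 10 in WT mice, against 1.1% of all 13052 genes tested (0.674% lower), and 2 of 10 in Adn-Lpin1-/- mice, against 2.46% of all genes (1.26% lower, 1.2% higher). Without Pnpla5, which the limit on low counts admitted by its LFD level, the count was 1 of 9 in each genotype. By size of log2 fold change Pnpla3 ranked 6 among the 88 genes that fell in WT mice and 10 among the 165 that fell in Adn-Lpin1-/- mice. The median log2 fold change of the 9 members other than Pnpla5 was -0.16 in WT and -0.24 in Adn-Lpin1-/- mice, against 0.0028 and 0.0096 over all genes tested. By exact permutation of the 5 against 5 mice, p was 0.00794 for each of the 4 comparisons, the smallest the design allows, and adjusted over all genes it was 0.213 in WT and 0.195 in Adn-Lpin1-/- mice.

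Over 11 other processing choices the adjusted p of Pnpla3 ran from 9.06e-05 to 0.0271 in WT and from 7.40e-06 to 0.0489 in Adn-Lpin1-/- mice. Of these choices 2 count the pool of the same 5 mice as a sixth library, and over the other 9 the lowest values, both by DESeq2, were 9.06e-05 and 0.000535. With any 1 of the 20 mice left out it stayed called (edgeR, adjusted p from 0.00285 to 0.0443 and from 0.000467 to 0.0338). Without mouse 3 of Adn-Lpin1-/- HFD its log2 fold change in Adn-Lpin1-/- mice was -3.17. The Pnpla5 call in WT mice was lost on leaving out WT LFD mice 2 or 4, or any WT HFD mouse but mouse 4 (edgeR, adjusted p from 0.0222 to 0.100 over all 20 fits). LFD totals were lower than HFD totals in WT mice, and with counts thinned to the smallest total both genes were still called in both genotypes, at log2 fold changes of -2.66 and -2.35 for Pnpla3 and -3.30 and -4.03 for Pnpla5.

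By genotype, Pnpla3 and Pnpla5 were higher on average in Adn-Lpin1-/- livers, but neither passed the test. On the LFD, Pnpla3 averaged 9.82 ± 2.70 CPM in Adn-Lpin1-/- and 6.42 ± 3.22 in WT mice (SD, n = 5 each), and the groups overlapped (log2 fold change 0.61, 95% interval -0.34 to 1.55). Pnpla5 averaged 2.10 ± 0.726 and 0.942 ± 0.502 CPM (log2 fold change 1.14, 95% interval -0.14 to 2.41), with 4 of 5 Adn-Lpin1-/- mice above all WT mice. The adjusted p on the LFD was 0.398 for Pnpla3 and 0.228 for Pnpla5 by edgeR. On the HFD, the log2 fold change of Pnpla3 was 0.97 (95% interval -0.073 to 2.01, adjusted p = 0.182 by edgeR) and dropped to 0.15 without mouse 3 of Adn-Lpin1-/- HFD, so most of that estimate came from 1 mouse. The HFD estimate of Pnpla5 was 1.00 (95% interval -0.89 to 2.90). It was 0.17 without mouse 3 of Adn-Lpin1-/- HFD, 1.62 without mouse 4 of WT HFD, 0.36 with thinned counts and 0.29 by voom. The diet effect did not differ measurably between the genotypes: the difference was 0.36 for Pnpla3 (95% interval -1.04 to 1.75) and -0.13 for Pnpla5 (95% interval -2.90 to 2.63) on the log2 scale.

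**Figure D2:**
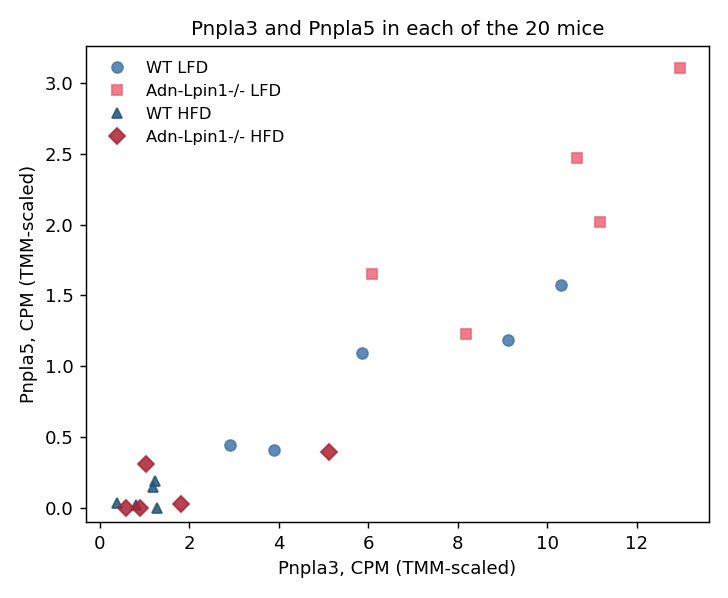
Pnpla3 (horizontal axis) against Pnpla5 (vertical axis), both in CPM on the scaled library totals, with 1 point for each of the 20 mice and a marker for each of the 4 groups. LFD mice spread from 2.92 to 13 CPM of Pnpla3 and HFD mice lie in the lower left corner, apart from mouse 3 of Adn-Lpin1-/- HFD at 5.12 CPM.

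Pnpla3 and Pnpla5 had a like pattern over the 20 mice, with a Pearson r of 0.88 between their log2 CPM, given as a description since the points share groups and libraries. Of 13051 other genes, Pnpla5 ranked 4 by likeness to Pnpla3 and Pnpla3 ranked 3 by likeness to Pnpla5. The 3 genes most like Pnpla3 were Cs (0.91), Arf4 (0.90) and Samm50 (0.89), and those most like Pnpla5 were Scd1 (0.90), Samm50 (0.90) and Pnpla3 (0.88), with r in parentheses. Mouse 3 of Adn-Lpin1-/- HFD had the highest level of both genes in its group.

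Samm50, which encodes a protein of the mitochondrial outer membrane, starts 24.417 kb after the Pnpla3 start site and is the next protein-coding gene. It averaged 110.2 ± 7.01 CPM in WT LFD and 81.0 ± 3.24 in WT HFD, and 112 ± 7.37 and 75.8 ± 6.04 in the Adn-Lpin1-/- groups. It also fell on the HFD in both genotypes, with smaller estimates (log2 fold change -0.44, standard error 0.063, adjusted p = 0.00325 in WT, and -0.57, 0.063 and 7.26e-05 in Adn-Lpin1-/- mice, by edgeR). Beyond it, Parvb, which encodes parvin beta, was not called (log2 fold change 0.19 and 0.25). The genes Mpped1, Efcab6 and Sult4a1 on the other side of Pnpla5, and Parvg beyond Parvb, were too low to test, with group means of at most 1.09 CPM.

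**Figure D3:**
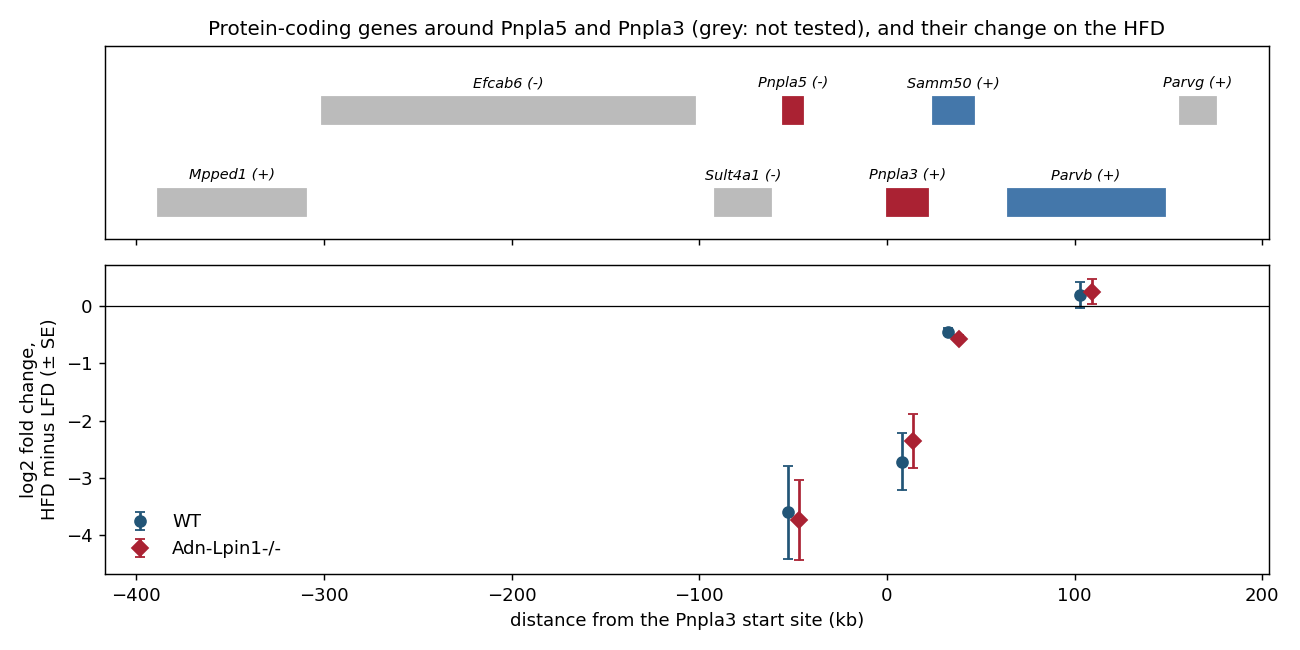
Upper panel, the 8 protein-coding genes around Pnpla5 and Pnpla3 by distance from the Pnpla3 start site in kb, with strand in parentheses (red, members; blue, other tested genes; grey, not tested). Lower panel, log2 fold change of HFD minus LFD ± standard error from edgeR for the 4 tested genes in each genotype: Pnpla5 and Pnpla3 lie between -3.74 and -2.36, Samm50 at -0.44 and -0.57, and Parvb above 0.

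The genotype comparisons asked how livers of Adn-Lpin1-/- mice differed from those of WT mice on the same diet. The only member called was Pnpla6, on the HFD. Pnpla6 (ENSMUSG00000004565, chromosome 8 from 3515384 to 3544266) encodes neuropathy target esterase, a lysophospholipase of the endoplasmic reticulum. WT HFD mice 1 to 5 were at 32.5, 26.4, 27.6, 26.1 and 23.8 CPM, and Adn-Lpin1-/- HFD mice at 31.7, 37.5, 42.6, 42.3 and 42.9 CPM. Of the Adn-Lpin1-/- mice, 4 were above all WT mice, and the groups touched only through mouse 1 of each. The level was 1.45 times as high in Adn-Lpin1-/- HFD as in WT HFD (log2 fold change 0.53, standard error 0.094, adjusted p = 0.000973 by edgeR). By exact permutation p was 0.0159 and, adjusted over all genes, 0.0943.

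That is 1 of 10 members, against 18.6% of all genes tested (9.87% higher, 8.78% lower), so a call in this comparison was common. By size Pnpla6 ranked 848 of the 1288 genes that rose, and by p-value 66. It was called in all 11 other processing choices (adjusted p from 7.25e-06 to 0.00881) and in all 20 fits without 1 mouse (edgeR, log2 fold change from 0.47 to 0.60). On the LFD its 5 values were 42.8, 37.7, 41.1, 37.8 and 32.9 CPM in Adn-Lpin1-/- and 35.8, 35.2, 36.3, 33.6 and 30.3 in WT mice, which overlapped (log2 fold change 0.17, adjusted p = 0.254 by edgeR). The genotype effects of the diets differed by 0.36 on the log2 scale (95% interval 0.088 to 0.64, adjusted p = 0.582 by edgeR), so a difference between the diets was not shown.

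Along the diet axis Pnpla6 was lower in WT HFD than in WT LFD in the mean, 27.3 ± 3.22 against 34.3 ± 2.41 CPM, with an adjusted p of 0.0913 by edgeR (log2 fold change -0.33). It crossed the threshold by DESeq2 (adjusted p = 0.0408) and by voom (adjusted p = 0.0297). In Adn-Lpin1-/- mice the diet estimate was 0.035 (95% interval -0.16 to 0.23). The order of the group means was therefore WT HFD lowest, then WT LFD, Adn-Lpin1-/- LFD and Adn-Lpin1-/- HFD. WT LFD and both Adn-Lpin1-/- groups overlapped one another. Through its mouse 1, at 32.5 CPM, WT HFD also overlapped WT LFD and Adn-Lpin1-/- HFD, and it lay below all Adn-Lpin1-/- LFD mice.

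Cell-type markers moved with genotype on the HFD. Of 8 macrophage markers 6 rose by edgeR and of 9 stellate cell markers 5 rose, against 9.87% of all genes tested. Of 7 hepatocyte markers 5 fell, against 8.78% of all genes. The summed macrophage level was 106 to 126 CPM in WT HFD and 136 to 299 in Adn-Lpin1-/- HFD, and the stellate cell level 158 to 236 and 192 to 477 CPM. In bulk liver, fewer cells of a type and less RNA per cell cannot be told apart, and the part of these markers in the Pnpla6 difference was not tested. On the LFD, 1 of 8 macrophage markers (Gpnmb) and 6 of 9 stellate cell markers rose, against 6.27% of all genes. Of 7 hepatocyte markers 1 (Serpina1c) fell, against 8.11%, so the single macrophage and hepatocyte calls do not stand out. Gpnmb, also called on the HFD, passed the limit on low counts through Adn-Lpin1-/- mice alone (WT at most 0.391 CPM on the LFD and 0.423 on the HFD). Its rise is thus partly fixed by that limit. Of 3 testable adipocyte markers, Fabp4 and Cfd rose by genotype on both diets, against 6.27% (LFD) and 9.87% (HFD) of all genes. Car3 rose by diet in Adn-Lpin1-/- mice, against 1.2% of all genes. The summed adipocyte level, nearly all of it Car3, which hepatocytes also express, was 1483 to 2787 CPM in WT and 1463 to 3349 in Adn-Lpin1-/- mice on the LFD, and 2255 to 3551 and 3137 to 4287 on the HFD. None of the 3 testable mesothelium markers was called by edgeR (3 had an unadjusted p under 0.05 for genotype on the LFD, 2 for diet in WT mice), and Cela1, the 1 testable pancreatic acinar marker, fell by genotype on the LFD.

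**Figure D4:**
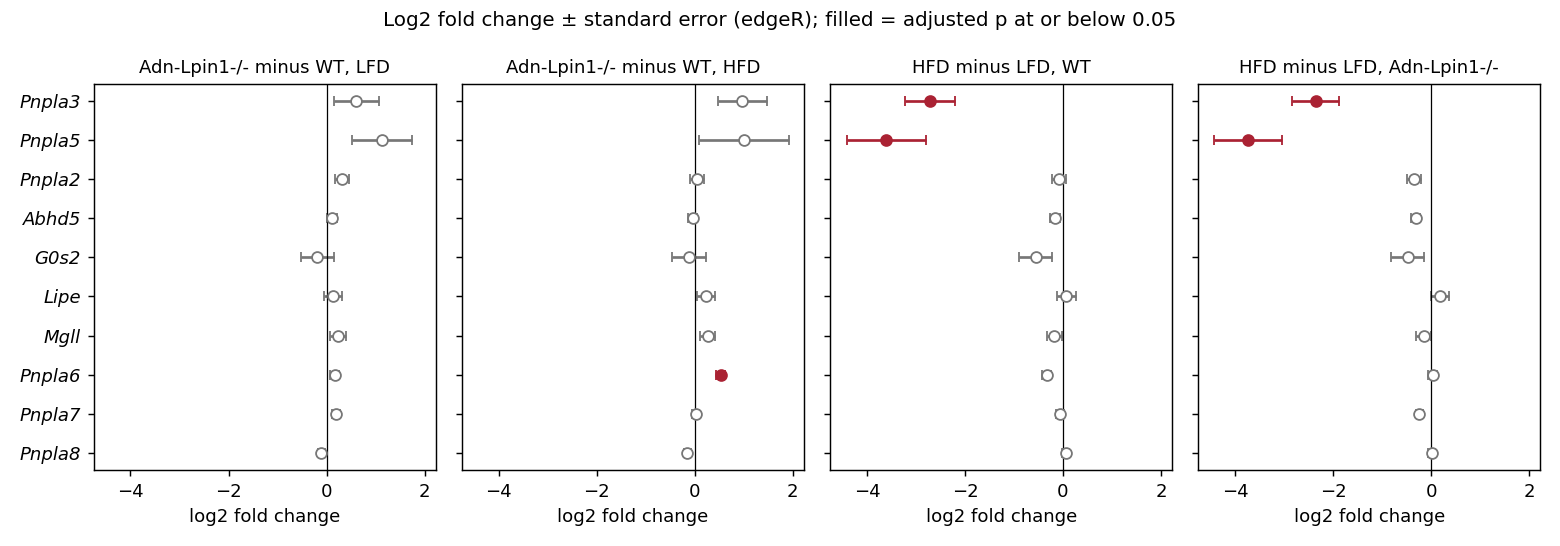
Log2 fold change (horizontal axis) ± standard error of the 10 genes in 4 comparisons by edgeR, filled red for an adjusted p of 0.05 or less. Filled points are Pnpla3 and Pnpla5 in both diet panels, between -3.74 and -2.36, and Pnpla6 at 0.53 in the HFD genotype panel.

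On the LFD 0 of 10 members were called by genotype, against 14.4% of all genes (6.27% higher, 8.11% lower). Pnpla2 and Pnpla7 had an unadjusted p under 0.05 by edgeR, as did 3768 of the 13052 genes tested. For genotype on the HFD 4330 genes had such a p, for diet in WT mice 2059 and for diet in Adn-Lpin1-/- mice 2097. These numbers are also the background of the unadjusted counts given for the gene lists. The count of members called on the LFD was also 0 by DESeq2, and by voom 1 member, Pnpla7, was called. The estimate was above 0 for 8 of the 10 members on the LFD and 7 on the HFD, with a median log2 fold change of 0.18 and 0.14 against 0.0065 and 0.0023 over all genes. For the interaction of genotype and diet 0 of 10 members and 0% of all genes were called by edgeR. At an unadjusted p under 0.05 that test held 938 genes, 1 of them a member (Pnpla6), and DESeq2 called 30 genes and voom 0, none of the 30 a member.

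In the adipose triglyceride lipase axis 0 of 3 genes were called by edgeR, with Pnpla2 by genotype on the LFD, and Pnpla2 and Abhd5 by diet in Adn-Lpin1-/- mice, at an unadjusted p under 0.05. Pnpla2 (ENSMUSG00000025509, chromosome 7 from 141455198 to 141460743) was at 190.3, 161, 222, 223 and 184 CPM in WT LFD mice 1 to 5 and at 257, 213, 240.3, 327 and 181 in Adn-Lpin1-/- LFD mice. On the HFD it was at 197, 163, 179, 209.7 and 177 CPM in WT and 165, 221, 141, 214 and 219.7 in Adn-Lpin1-/- mice. Adn-Lpin1-/- LFD held the 3 highest values of the 20 mice, and each pair of groups overlapped. Genotype on the LFD gave a log2 fold change of 0.31 (standard error 0.15, adjusted p = 0.156 by edgeR), and diet in Adn-Lpin1-/- mice -0.34 (standard error 0.15, adjusted p = 0.240). On the HFD the genotype estimate was 0.052, with an interval of -0.25 to 0.35.

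Abhd5 (ENSMUSG00000032540, chromosome 9 from 122351608 to 122381524), the coactivator, was at 23.3, 24.6, 20.3, 18.2 and 21.2 CPM in WT LFD and 23.5, 21.5, 27.9, 23.4 and 20.1 in Adn-Lpin1-/- LFD mice. On the HFD the values were 18.3, 19.7, 19.3, 19.8 and 19.2 CPM in WT and 19.4, 18.8, 21.8, 15.6 and 18.1 in Adn-Lpin1-/- mice. Its nearest approach to a call was diet in Adn-Lpin1-/- mice (log2 fold change -0.31, standard error 0.094, adjusted p = 0.0850 by edgeR), which passed without mouse 5 of Adn-Lpin1-/- LFD (adjusted p = 0.0472 by edgeR) or mouse 3 of Adn-Lpin1-/- HFD (0.0492), and by DESeq2 (0.0461). Of its exonic bases, 26.26% also lie in the antisense gene A730085K08Rik, and a strand setting is not given in the sources used here, so reads of the pair may not be told apart there.

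G0s2 (ENSMUSG00000009633, chromosome 1 from 193272161 to 193273188), the inhibitor, varied most between mice among the members well above the limit. Its values were 312, 187, 229, 170.2 and 154 CPM in WT LFD and 124, 129.7, 238, 261 and 168 in Adn-Lpin1-/- LFD mice. On the HFD they were 188, 116, 107, 211 and 96.1 CPM in WT and 241, 150.3, 145, 73.5 and 52.5 in Adn-Lpin1-/- mice. The range within Adn-Lpin1-/- HFD alone, 52.5 to 241 CPM, was wider than any difference between group means. The diet estimates were -0.55 in WT (95% interval -1.26 to 0.15) and -0.48 in Adn-Lpin1-/- mice (95% interval -1.18 to 0.23), with adjusted p of 0.451 and 0.525 by edgeR. The highest value, 312 CPM, was in mouse 1 of WT LFD, the mouse with 168 Adipoq reads; G0s2 is also abundant in adipocytes, and their part in that value was not tested.

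Per kilobase of transcript, the median ratio of G0s2 to Pnpla2 on the LFD was 3.7 (2.74 to 5.88) in WT and 2.86 (1.73 to 3.56) in Adn-Lpin1-/- mice, and on the HFD 2.55 (1.95 to 3.60) and 2.44 (0.857 to 5.25), with the range over mice in parentheses. The ratio of Abhd5 to Pnpla2 was 0.0964 (0.0682 to 0.128), 0.0844 (0.0596 to 0.0969), 0.0901 (0.0774 to 0.101) and 0.0708 (0.0609 to 0.129) in the same order. The ranges of all 4 groups overlapped for both ratios. Transcript of the inhibitor exceeded that of the lipase in every mouse except mouse 5 of Adn-Lpin1-/- HFD, and transcript of the coactivator was below it in every mouse.

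Of the later lipases, Mgll (ENSMUSG00000033174, chromosome 6 from 88724412 to 88828360) was the most abundant. On the LFD it averaged 388 ± 69.9 CPM in WT and 457 ± 60.0 in Adn-Lpin1-/- mice, and on the HFD 343 ± 62.0 and 411 ± 90.4 (SD, n = 5 each). The mean was higher in Adn-Lpin1-/- mice on both diets, by log2 fold changes of 0.24 (95% interval -0.089 to 0.56) and 0.26 (95% interval -0.063 to 0.59), and neither passed the edgeR test (adjusted p = 0.336 and 0.251). Lipe (ENSMUSG00000003123, chromosome 7 from 25379527 to 25398710) averaged 28.8 ± 3.25, 31.5 ± 2.57, 30.3 ± 6.38 and 35.5 ± 12.4 CPM in the same order. In Adn-Lpin1-/- HFD the 5 mice were at 48.4, 47.9, 22.7, 24.2 and 34.4 CPM, so mice of that group differed from each other by more than the group means did. The genotype estimate for Lipe on the HFD was 0.23 (95% interval -0.15 to 0.62). Antisense genes share 5.843% of the exonic bases of Lipe (4732471J01Rik) and 1.849% of those of Mgll (Gm26588).

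Pnpla7 and Pnpla8 act on phospholipids rather than on stored triglyceride: the first is a lysophospholipase related to neuropathy target esterase, and the second a calcium-independent phospholipase A2 of mitochondria and peroxisomes. Pnpla7 (ENSMUSG00000036833, chromosome 2 from 24976033 to 25054057) was at 181, 189, 168, 177 and 189 CPM in WT LFD and 219, 216, 208, 206 and 185 in Adn-Lpin1-/- LFD mice, with 4 of the 5 Adn-Lpin1-/- mice above all WT mice. The log2 fold change was 0.19 (standard error 0.076, adjusted p = 0.0958 by edgeR), and voom with quality weights called it (adjusted p = 0.0415). On the HFD, WT mice ran from 146 to 196 and Adn-Lpin1-/- mice from 165 to 195 CPM, with a log2 fold change of 0.016. Diet in Adn-Lpin1-/- mice gave -0.24 (adjusted p = 0.112 by edgeR). Pnpla8 (ENSMUSG00000036257, chromosome 12 from 44221370 to 44312343) averaged 85.4 ± 5.80, 79.3 ± 7.12, 88.9 ± 7.19 and 80.0 ± 6.91 CPM in WT LFD, Adn-Lpin1-/- LFD, WT HFD and Adn-Lpin1-/- HFD. Its largest estimate was -0.15 by genotype on the HFD (95% interval -0.31 to 0.0041, adjusted p = 0.162 by edgeR).

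Levels can be set against each other between genes only per kilobase. In WT LFD livers the order of mean RPKM was G0s2 (249.9), Mgll (79.6), Pnpla2 (64.9), Pnpla7 (24.1), Pnpla8 (21.6), Pnpla6 (7.62), Lipe (6.36), Abhd5 (5.96), Pnpla3 (1.38) and Pnpla5 (0.556). The mice of neighbours in this order overlapped for Mgll and Pnpla2, Pnpla7 and Pnpla8, Pnpla6 and Lipe, Lipe and Abhd5, and Pnpla3 and Pnpla5. The order was the same in both Adn-Lpin1-/- groups, and in WT HFD it differed only in that Lipe (6.70) stood above Pnpla6 (6.06). The mice of Lipe and Abhd5 overlapped in every group, and both genes were below Pnpla2 in every mouse.

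**Figure D5:**
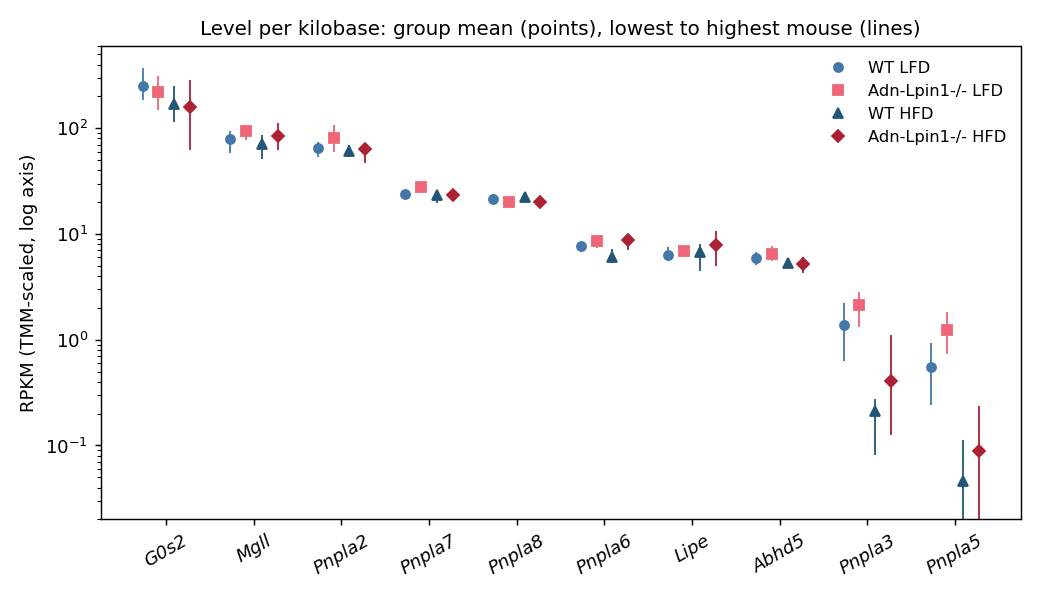
Level per kilobase (RPKM on the scaled library totals, log axis) of the 10 genes in 4 groups of 5 mice, with group means as points and lines from the lowest to the highest mouse; lines that reach the lower edge stand for a lowest mouse with 0 reads. G0s2 stands highest, at 157 to 249.9 RPKM, and Pnpla3 and Pnpla5 lowest, with the HFD groups below the LFD groups.

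Over the 20 mice, genes among the 3 whose log2 CPM was most like each other member, with Pearson r in parentheses, were as follows. For the axis they were Ctif (0.84), Sh2b1 (0.84) and Cntrl (0.84) for Pnpla2, Nsmf (0.85), Elovl1 (0.82) and Dntt (0.81) for Abhd5, and Chrna2 (0.78) and 4930506C21Rik (0.74) for G0s2. For the later lipases they were Ehhadh (0.89), Slc25a20 (0.88) and Crat (0.87) for Mgll and Slc27a1 (0.85) and Arel1 (0.84) for Lipe. For the phospholipases they were Gm9821 (0.92), Stx16 (0.92) and Fam193b (0.91) for Pnpla6, Map7 (0.84), Aldoa (0.81) and Fabp1 (0.80) for Pnpla7, and Lysmd3 (0.92), Arfgef1 (0.91) and Pank3 (0.90) for Pnpla8. Among the members themselves the next most alike after Pnpla3 and Pnpla5 were Pnpla3 and Abhd5 (0.72), and Pnpla2 had an r of 0.15 with Abhd5 and 0.12 with G0s2.

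Of 13 tested genes of lipid droplet coats, 4 rose by genotype on each diet, against 6.27% (LFD) and 9.87% (HFD) of all genes. Their median log2 fold change was 0.26 and 0.13, against 0.0065 and 0.0023 over all genes. Cidea, whose protein fuses lipid droplets, averaged 7.93 ± 9.94 against 0.0197 ± 0.0441 CPM on the LFD and 18.5 ± 19.1 against 0.0300 ± 0.0411 CPM on the HFD in Adn-Lpin1-/- against WT mice. It passed the limit on low counts through Adn-Lpin1-/- mice alone (WT mice at most 0.0986 and 0.0770 CPM). Its rise, counted among the 4 on each diet, is thus partly fixed by that limit. Cidec, of the same family, had log2 fold changes of 2.74 and 2.88, and the perilipin Plin4 2.44 and 2.09 (edgeR, adjusted p at most 0.00446). Fitm1, which takes part in droplet formation, rose on the LFD by 1.06, and Bscl2, which encodes seipin, on the HFD by 0.24. By diet 0 of the 13 were called in WT mice by edgeR, against 1.1% of all genes, and 1 had an unadjusted p under 0.05. In Adn-Lpin1-/- mice 1 of the 13, Bscl2, rose, against 1.2% of all genes.

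Of 24 other neutral lipid hydrolases tested, 4 fell by genotype on the LFD: the carboxylesterases Ces2a (-0.59 on the log2 scale) and Ces3a (-0.36), hepatic lipase Lipc (-0.40), and arylacetamide deacetylase Aadac (-0.36). On the HFD Ces1e (-0.25) and Ces1f (-0.22) fell and the monoglyceride hydrolase gene Abhd6 rose (0.56). Called in either direction, these are 4 and 3 of 24, against 14.4% and 18.6% of all genes, so neither count stands out from the background, and the median log2 fold change of the list was 0.0051 and 0.070. By diet 0 of the 24 were called (edgeR; 6 in WT and 1 in Adn-Lpin1-/- mice at an unadjusted p under 0.05).

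Of 27 tested genes of the hormonal control of lipolysis, genotype changed 3 in LFD and 5 in HFD livers, a share no higher than the 14.4% and 18.6% of all genes, with a median log2 fold change of 0.024 and 0.029. The insulin receptor gene Insr fell on both diets, from 122 ± 14.9 to 91.2 ± 9.15 CPM on the LFD and from 137 ± 6.28 to 101 ± 5.79 CPM on the HFD (SD, n = 5 each; edgeR, adjusted p = 0.00202 and 0.00138). Gnai1, an inhibitory G protein subunit, rose on both (1.55 and 1.37 on the log2 scale). It passed the limit on low counts mainly through Adn-Lpin1-/- mice (WT at most 0.814 CPM on the LFD and 1.04 on the HFD). Its rise, counted among the 3 and the 5, is thus partly fixed by that limit. Adrb3, a beta-adrenergic receptor, fell on the LFD (-0.83). The adenylate cyclases Adcy3 (0.90), Adcy4 (0.73) and Adcy6 (0.48) rose on the HFD. By diet 0 of the 27 were called (edgeR; 4 in WT and 3 in Adn-Lpin1-/- mice at an unadjusted p under 0.05).

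Among 15 lipogenic genes, 0 were called by genotype (edgeR; 2 on each diet at an unadjusted p under 0.05) or by diet in WT mice (6 unadjusted). In Adn-Lpin1-/- mice Scd1, which encodes stearoyl-CoA desaturase, fell on the HFD (-1.64 on the log2 scale, 7375 ± 3736 against 23012 ± 3166 CPM), and so did the elongase gene Elovl6 (-1.20), 2 of 15 against 1.26% of all genes. Of 17 fatty acid oxidation genes, Pdk4, a kinase that shuts pyruvate dehydrogenase, rose by genotype on both diets (2.07 and 1.91) and Vnn1, a pantetheinase, on the LFD (1.36), so that 2 and 1 of 17 were called, against 14.4% and 18.6% of all genes. By diet 0 of the 17 were called (edgeR; 3 in WT and 4 in Adn-Lpin1-/- mice at an unadjusted p under 0.05).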

How the data were processed

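Liver RNA was sequenced from 20 single mice (5 in each of 4 groups) and from 4 pools. Per the labels and the study's methods, the authors used STAR 2.5.1a on GRCm38, counted unambiguous, uniquely aligned reads on Ensembl genes with featureCounts 1.4.6-p5, and deposited the raw count of each gene beside its CPM and RPKM. The deposited CPM and RPKM are the count scaled to the library total and, for RPKM, to gene length, and were only checked against the counts. The CPM and RPKM of the mice printed here are on TMM-scaled totals. Those of the pools and the limits for 0 reads are on totals without TMM. Symbols were matched to 40254 genes (97.3%). The 355 rRNA genes were left out, and genes had to exceed 1 CPM in 4 or more of the 20 libraries to enter the test in edgeR 4.0.16 (R 4.3.3; TMM, quasi-likelihood test, Benjamini-Hochberg adjustment over all genes, threshold 0.05). The 4 group means were fitted together, without the pools, labelled as pooled from the same mice. Pools, DESeq2 1.42.0, voom of limma 3.58.1, other limits on low counts, the replicate block and leaving out each mouse were the alternatives. GC correction and thinning were added after seeing the data. Single genes were also tested by two-sided exact permutation of 252 arrangements on log2(CPM) with a prior count of 0.5. Scripts were tested on simulated data. The members, gene lists and the rule for named genes (all members, up to 4 called genes of each list by size of change, the 3 genes most like each member, and the 3 protein-coding genes on either side of Pnpla3 and Pnpla5) were chosen with earlier results of these data known; 1 of the 3 genes most like G0s2 and 1 of those most like Lipe are not reported here. Gene types came from GENCODE M21 and promoters from RefSeq. Other steps ran in Python 3.11.15 (pandas 2.3.3, matplotlib 3.10.9). Replicates are separate mice.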

Additional observations from a re-analysis of the deposited data

Results flagged for a closer look

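Of the 40 combinations of member and group, 1 held a mouse far from the others. Pnpla3 in mouse 3 of Adn-Lpin1-/- HFD was at 5.12 CPM, against 1.82 CPM in the next mouse, a gap of 0.727 of the range of the group (critical value 0.71 for 5 mice). Chance alone marks about 1 in 20 groups. Without that mouse, the diet difference of Pnpla3 in Adn-Lpin1-/- mice was -3.17 on the log2 scale and the genotype difference on the HFD 0.15, against -2.36 and 0.97 with it.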

How the results depend on the processing

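Pnpla6 by genotype on the HFD, and Pnpla3 and Pnpla5 by diet, were called under all 11 other choices, Pnpla5 in WT mice not in every fit without 1 mouse. Pnpla6 by diet in WT mice, not called, passed the threshold by DESeq2, by voom and, in both fits with them, with the pools. The number of members called by genotype on the LFD moved from 0 to 1 by voom with quality weights or with the pools as sixth libraries (Pnpla7 each time) and to 4 by voom with the pools (Pnpla2, Pnpla3, Pnpla5 and Pnpla7). By diet in Adn-Lpin1-/- mice it moved from 2 to 4 with the pools (Abhd5 and Pnpla7 added) and to 5 by voom with the pools (Pnpla2 also). The pools count the RNA of the same mice again. Without 1 mouse, the number of members called was 0 to 0 by genotype on the LFD, 1 to 1 by genotype on the HFD, 1 to 2 by diet in WT mice, 2 to 3 by diet in Adn-Lpin1-/- mice, and 0 to 0 for the difference between the diets. All 62 reversed log2 values were of uncalled members. The 20 outside the fits without 1 mouse were, for genotype on the LFD, Pnpla8 0.062 (GC correction), and, for genotype on the HFD, Pnpla2 -0.045 (voom and pools), Pnpla2 -0.058 (GC correction), Pnpla7 -0.0054 (pools), Pnpla7 -0.011 (voom and pools), Pnpla7 -0.0095 (the default limit of edgeR), Pnpla7 -0.052 (GC correction), Pnpla8 0.022 (GC correction), Abhd5 0.0022 (GC correction), and, for diet in Adn-Lpin1-/- mice, Pnpla6 -0.013 (pools), Pnpla6 -0.10 (voom and pools), Pnpla6 -0.00050 (thinned counts), and, for the difference between the diets, Pnpla3 -0.21 (voom), Pnpla3 -0.23 (voom and pools), G0s2 -0.055 (voom), G0s2 -0.044 (replicate block), Mgll -0.048 (voom), Mgll -0.042 (voom and pools), Mgll -0.0011 (GC correction), Lipe -0.021 (voom). Without 1 mouse, the log2 values that changed sign ran, for genotype on the HFD, Pnpla2 from -0.0036 to 0.14, Pnpla7 from -0.040 to 0.052, Abhd5 from -0.10 to 0.0059, G0s2 from -0.45 to 0.086, and, for diet in Adn-Lpin1-/- mice, Pnpla6 from -0.016 to 0.10, Pnpla8 from -0.033 to 0.048, and, for the difference between the diets, Pnpla3 from -0.46 to 0.58, Pnpla5 from -0.97 to 0.48, G0s2 from -0.25 to 0.28, Mgll from -0.092 to 0.12, Lipe from -0.035 to 0.23. The cause of these changes was not tested. With the replicate block the same members were called in each comparison (0, 1, 2, 2 and 0). The replicate numbers gave no sign of a pairing. Over 30 pairs with the same number the correlation of deviations ran from -0.41 to 0.27, and 1 of 20 mice correlated best with its own number. Pairing in another way, such as by litter, was not tested. Depth limits Pnpla5 (0 to 34 reads in HFD mice) and, less so, Pnpla3 (22 to 437 reads in HFD mice), and 5 mice a group leave wide intervals for G0s2.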

Other observations

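The CPM of the pools are on totals without TMM, unlike those of the mice. On these unlike scales, 36 of the 40 values of the members in the pools lay inside the range of the 5 mice of the same group. The pools had the low HFD level of Pnpla3 and Pnpla5 that their mice had. As they are labelled as pooled from the same mice, this is not separate evidence. Pnpla3 was at 5.93 CPM in the WT and 11.8 in the Adn-Lpin1-/- pool of the LFD, and at 1.26 and 2.13 on the HFD. Pnpla5, in the same order, was at 0.807, 2.46, 0.0915 and 0.120 CPM. Pnpla8 was above the range of its mice in both Adn-Lpin1-/- pools (88.8 and 93.5 CPM, highest mice 86.9 and 90.0). Pnpla7 was below it in the WT LFD pool (162 CPM, lowest mouse 168) and Abhd5 in the WT HFD pool (17.8 CPM, lowest mouse 18.3). As pools and mice were scaled differently, these small gaps cannot be read as differences.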
